A study of Mus musculus with 73 samples.

Results

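The regions described here are 398 stretches of the mouse genome (mm9) that carried a deposited HNF6 peak in each of 3 control livers and overlapped, by at least 1 bp, one of 33302 FoxA binding sites, each 400 bp long. They were found by merging the peaks of the 3 control lists into 7248 regions. Of these, 1078 held a peak of all 3 lists, 398 of them at a FoxA site and 680 elsewhere. The 398 regions overlapped 675 FoxA sites. The regions were chosen by the presence of peaks in the 3 control lists, so their strength in controls is a description and was not tested. What was measured beside it is the presence of HNF6 peaks in livers without Foxa1 and Foxa2, and DNA methylation at the overlapped sites.

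Every mouse of the HNF6 ChIP (chromatin immunoprecipitation) and whole-genome bisulfite sequencing (WGBS) groups carried Foxa1L/L;Foxa2L/L, alleles that Cre recombinase can delete. Controls had no Cre (3 HNF6 and 2 WGBS libraries). Developmental nulls carried the Alfp Cre transgene, which acts in the fetal liver (2 and 2 libraries), and were used at 8 weeks of age like the controls. Adult nulls were injected at 8 weeks with AAV8 carrying Cre under the hepatocyte-specific Tbg promoter and were studied after 1 month (2 and 2 libraries), so other liver cells kept both genes. Per the labels, ChIP was made from liver and WGBS from hepatocytes. Reduced representation bisulfite sequencing (RRBS) covered 27 further libraries labelled liver. An age series set controls against developmental double nulls (4 libraries each, at 20 days, 8 weeks, 4 months and 6 months). Livers depleted in development that were FoxA1L/L;FoxA2L/+ or FoxA1L/+;FoxA2L/+ were 8 weeks old (2 libraries each). Triple nulls, which also lack Foxa3, were taken 7 days after Cre induction at 9 weeks of age (3 libraries) or 13 days after it at 12 weeks (2 libraries). Their controls carried the same floxed alleles with FoxA3-/-, received GFP in place of Cre and were of the same ages (3 and 2 libraries). Double nulls made in adulthood (3 libraries) and control livers injected with AAV GFP (2 libraries) were studied after partial hepatectomy, at 12 weeks. No label says whether the samples of a group came from separate animals, so the p-values below measure the spread between these samples. The files hold no expression values, so neither the tissue labels nor the loss of Foxa1 and Foxa2 was checked against marker genes.

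FoxA proteins are forkhead transcription factors that can bind their sites in closed chromatin and make them accessible to other factors. HNF6, a cut-homeodomain factor, acts with them in hepatocyte and bile duct development. In hepatocytes, active enhancers bound by such factors usually have low CpG methylation, and methylation of CpGs is commonly gained where enhancer DNA is no longer occupied.

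The 7 HNF6 lists were unequal. Control lists held 5767, 4652 and 1770 peaks, developmental null lists 3122 and 1188, and adult null lists 4028 and 5678. Between 16760874 and 30469386 ChIP tags per library remained after filtering. The headers name MACS 2.1.1 for the control and developmental null lists and MACS 1.4.3 for the adult ones. Median peak width was 307 and 320 bp in the adult lists and 82 to 150 bp in the others. Caller and genotype therefore cannot be told apart where adult lists are set against the rest. The same holds for age and AAV8 injection, since adult nulls were studied 1 month after injection at 8 weeks. The X chromosome held 7.71% to 49.7% of a list's peaks, and the FoxA table holds autosomes alone.

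The 398 regions lay on 19 autosomes, with 33 on chromosome 1, 30 on chromosome 4 and 10 each on chromosomes 14 and 18. Relative to the FoxA sites available, chromosome 19 held the most, 20.0 regions per 1000 sites, and chromosome 14 the fewest, 7.55. Their median width was 213 bp (138 to 589 bp). A single FoxA site was overlapped by 220 regions, 2 sites by 108 and 3 or more by 70. Many sites overlap each other and share CpGs, and the 675 sites formed 398 separate stretches. The HNF6 summit of control 1 lay a median of 36 bp from the centre of the nearest overlapped site, within 25 bp at 151 regions and over 100 bp away at 82. The regions were thus centred near the FoxA sites although the rule asked for 1 shared base pair. Neighbouring regions were within 10 kb of each other in 8 pairs.

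Among all peaks of a list, those at the regions ranked high in controls 1 and 2 and lower in control 3. The authors' fold enrichment over input had a median of 18.9 in control 1 (5.90 to 53.3), 14.2 in control 2 (3.52 to 51.2) and 6.44 in control 3 (3.40 to 21.5). These medians correspond to the 91.8th, 87.8th and 59.9th percentile of the respective lists. Regions in the top 10% of the list numbered 235 in control 1, 169 in control 2 and 53 in control 3.

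The strongest region by mean control percentile was at chromosome 3, 118194834 to 118195147. Its fold enrichment was 53.3, 51.2 and 21.5 in the controls, 19.3 and 16.2 in the developmental nulls and 83.8 and 78.8 in the adult nulls. Next came chromosome 16, 24078236 to 24078509 (41.1, 35.5 and 13.4 in controls), chromosome 13, 115255705 to 115255938 (42.2, 31.4 and 13.4), chromosome 17, 30800182 to 30800601 (38.0, 26.9 and 14.5) and chromosome 6, 24212806 to 24213065 (38.4, 34.1 and 12.3). Each of these 5 regions kept a peak in all 4 null lists, and they are also the 5 strongest of the 122 regions with a peak in all 7 lists. At the chromosome 16 region the developmental null folds were 11.9 and 10.2, and at the chromosome 13 region 18.6 and 12.6. Folds are not comparable between lists made by different callers, so they rank peaks within a list here. Gene annotation of the mm9 build was not used, so regions are named by position.

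At the edge of the rule, the smallest overlaps with a site were 3 bp at chromosome 9, 63389548 to 63389702, and 4 bp at chromosome 12, 105613558 to 105613783, and at chromosome 9, 88605864 to 88606111. The first was absent from all 4 null lists and the other two had a peak in each. The nearest regions outside a site missed one by 15 bp (chromosome 1, 39491205 to 39491457), 19 bp (chromosome 14, 77211809 to 77211981) and 20 bp (chromosome 12, 13009748 to 13009896). The first and the second of these had a peak in all 4 null lists and the third had none. Peaks in all 4 null lists and in none thus occurred on both sides of the threshold.

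About 4 to 5 in 10 of the regions still had an HNF6 peak in a developmental null liver, and nearly all had one in an adult null liver. A peak was found at 212 of the 398 regions in developmental null 1, which is 53.3% (Wilson 95% interval 48.4% to 58.1%), and at 154 in developmental null 2, 38.7% (34.0% to 43.6%). In adult null 1 it was found at 378, 95.0% (92.4% to 96.7%), and in adult null 2 at 386, 97.0% (94.8% to 98.3%). Over all 1078 reproducible regions the shares were 61, 45.2, 89.5 and 86.9% in the same order, and over the 804 autosomal ones 52.5, 40.3, 95.1 and 97%. These intervals cover counting error within a list only, and those of the 2 developmental null libraries did not overlap.

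**Figure D1:**
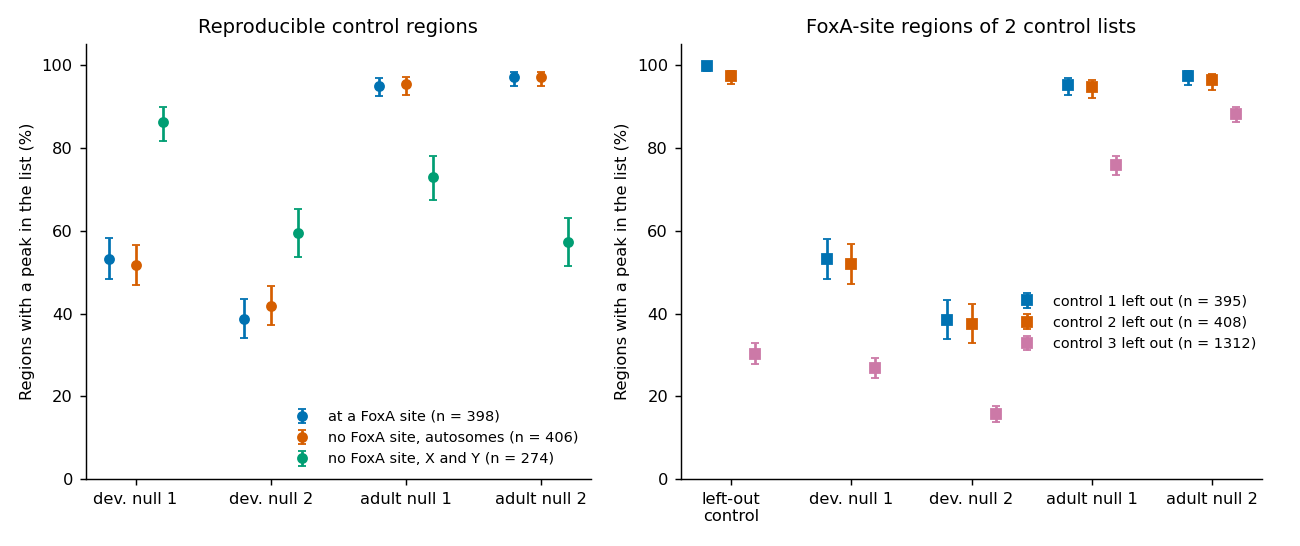
Share of regions (%, vertical axis) with a peak in each list, with Wilson 95% intervals. Left, the 398 regions at a FoxA site and the other reproducible control regions. Right, FoxA-site regions of 2 control lists, looked up in the control list left out and in the 4 null lists. At the 398 regions the shares were 53.3% and 38.7% in developmental null lists and 95.0% and 97.0% in adult null lists, and the list of control 3 held 30.3% of the regions of controls 1 and 2.

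The same regions tended to keep their peak in both developmental nulls. Both lists held a peak at 122 regions, which is 57.5% of those in developmental null 1 and 79.2% of those in developmental null 2. A further 90 had one in the first list alone and 32 in the second alone, and 154 (38.7%) had none. The adult lists shared 376 regions. Of the 244 regions with a peak in a developmental null, 0 lacked one in an adult null. Other autosomal regions were near this. Of the 406 without a FoxA site, 3 with a peak in 1 developmental null and 1 with a peak in both lacked one in 1 adult null. Of the 154 regions without a developmental null peak, 132 had a peak in both adult nulls, 12 in one of them and 10 in neither. Among the 406 autosomal regions without a FoxA site, these 3 classes held 142, 15 and 6, so they were not particular to FoxA sites.

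Regions with stronger control peaks had a developmental null peak more often. Of the 133 weakest regions by mean control percentile, 58.6% had none, against 37.1% of the middle 132 and 20.3% of the strongest 133. Adult null 1 held a peak at 88.0%, 97.0% and 100% of these classes. Regions whose summit lay within 25 bp of a site centre lacked a developmental null peak in 29.8% of cases, against 45.5% at 26 to 50 bp, 45.5% at 51 to 100 bp and 41.5% further out. Their median control percentile, 76.0, was lower than the 77.9, 78.1 and 79.5 of the more distant classes. The number of sites made a smaller difference, with 42.7% absent at regions of 1 site, 34.3% at 2 and 32.9% at 3 or more.

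A control list that took no part in choosing the regions gives the spread between controls, and control 3 stood apart in it. Regions at FoxA sites shared by controls 2 and 3 numbered 395, of which 99.7% had a peak in control 1, 53.2% and 38.5% in the developmental nulls and 95.2% and 97.2% in the adult nulls. Those of controls 1 and 3 numbered 408, with 97.3% in control 2, 52.0% and 37.5% in the developmental nulls and 94.6% and 96.3% in the adult nulls. Without control 3, however, 1312 regions were shared by controls 1 and 2, and 30.3% of them (Wilson 95% interval 27.9% to 32.9%) had a peak in control 3 itself. In that larger set the developmental null lists held 26.8% and 15.7% and the adult lists 75.8% and 88.1%. In regions not chosen with control 3, that control's share was thus above but near that of developmental null 1, and further above that of developmental null 2. With each null list reduced to its 1188 strongest peaks, the length of the shortest list, the shares of the 398 regions were 24.4% and 38.7% in developmental nulls and 72.1% and 72.4% in adult nulls. When at least 0.5 of the region had to be covered they were 27.6% and 16.8% in developmental nulls, whose peaks are narrow.

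The shares were near those of other autosomal HNF6 regions. At the 406 autosomal regions without a FoxA site, the shares were 51.7% and 41.9% in developmental nulls, and the adult null lists held 95.3% and 97.0%. The regions at FoxA sites differed from them by 1.54, -3.18, -0.345 and -0.0594 percentage points, with a mean of -0.51 (two-sided exact sign-flip permutation test over 4 libraries, p = 0.625, where 0.125 is the smallest possible). Against all 680 regions without a site the differences were -12.3 and -10.3 points in developmental nulls and 8.65 and 16.0 in adult nulls, with a mean of 0.502 (exact p = 1). Those 680 include 274 regions on X and Y, which had a peak in 86.1%, 59.5%, 73.0% and 57.3% of cases. Their median fold in control 1 was 4.77, against 18.9 at FoxA sites and 17.3 at other autosomal regions. Limiting the comparison to autosomes was decided after these values were seen.

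Methylation at the regions was low in controls, well below the level at other FoxA sites. The mean over the 398 regions was 9.75% in control 1 and 12.3% in control 2, and over the 32627 other FoxA sites 20.8% and 22.6%. The median region had a control level of 7.80%, and 331 regions were under 20% in both controls. Across all FoxA sites the level fell with the number of control lists that had a peak there. Sites without a control HNF6 peak averaged 21.5% and 23.2% in the controls, those with a peak in 1 list 13.2% and 15.6%, in 2 lists 11.4% and 13.9%, and in all 3 lists 9.21% and 11.7%. Control 1 was below control 2 in each class. No read numbers come with the methylation values, whose depth is therefore unknown.

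**Figure D2:**
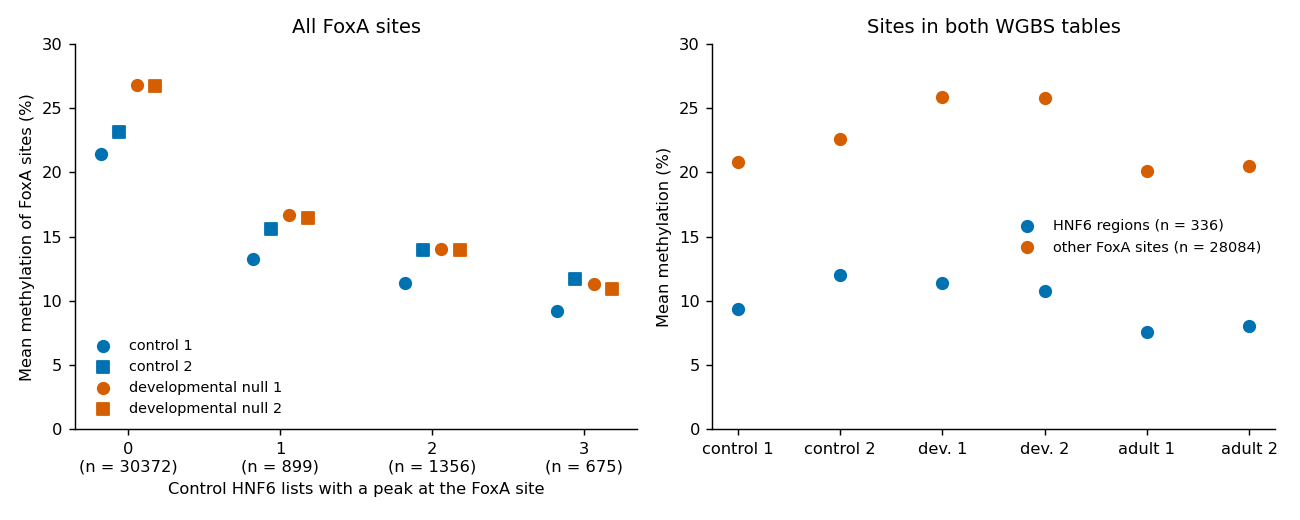
Mean methylation (%, vertical axis), 1 point per WGBS library. Left, all FoxA sites by the number of control HNF6 lists with a peak there, where control levels run from 21.5% and 23.2% without a peak to 9.21% and 11.7% with a peak in 3 lists. Right, the HNF6 regions and other FoxA sites at sites present in both WGBS tables, where the 2 adult null points of the HNF6 regions lie lowest.

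In developmental nulls the mean level of the regions did not leave the range of the controls. It was 11.9% and 11.6% in the null libraries and 9.75% and 12.3% in controls, a difference of 0.737 points between 11.8% ± 0.214 (SD, n = 2) and 11.0% ± 1.81 (SD, n = 2; two-sided exact permutation test, p = 1). The sign rested on control 1: without it the difference was -0.543, and the median over regions gave -0.962. At FoxA sites outside the regions both nulls (26% and 25.9%) lay above both controls, by 4.23 points (exact p = 0.333, the smallest that 2 against 2 libraries allow). The regions' difference was 3.50 points smaller than that of the other sites (-3.50, exact p = 0.333), with no overlap between nulls and controls in the member-minus-other values. Weighting the other sites to the control levels of the 675 sites, a comparison added after seeing the data, left a gap of -2.27 points (exact p = 0.333). The weights came from the same 2 controls that enter the difference, so an effect of that choice cannot be told apart.

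The gap between the regions' sites and other FoxA sites differed with the control level and was largest at 10 to 20% among classes of 15 or more sites of the regions. There the 139 sites of the regions changed by a mean of -0.55 points in developmental nulls and 5607 other sites by 5.25, and gains over 20 points occurred at 3.60% and 11.4% of them. At control levels of 20 to 40% the 46 sites of the regions gained a mean of 7.01 points and other sites 8.86, with gains over 20 points at 17.4% and 17.8%. At 5 to 10%, where 302 of the 675 sites lay, the means were -0.821 and 1.5. The order was the other way under 5%, with 1.87 at 167 sites of the regions and 1.51 at other sites, and at 40 to 60%, with 9.89 at 15 sites and 8.62. Above 60% the regions held 6 sites. The 2 controls that set these classes also enter each difference, so an effect of that choice cannot be told apart. In adult nulls, at sites in both tables, the regions' sites changed by -5.49 points at 10 to 20% and other sites by -2.62. These means were -2.59 and -2.17 at 5 to 10%, -3.17 and -1.58 at 20 to 40%, and -7.32 and -1.22 at 40 to 60%. Under 5% they were 0.176 and 0.0502.

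In adult nulls the regions lay below both controls. Adult nulls were studied 1 month after AAV8 injection at 8 weeks, and the other WGBS groups at 8 weeks with no injection stated. Age, injection and loss of Foxa1 and Foxa2 therefore cannot be told apart here. Over the 336 regions with sites in both WGBS tables, the mean was 7.55% and 8.05% in adult nulls, 9.39% and 12.0% in controls and 11.4% and 10.8% in developmental nulls. The adult nulls differed from controls by -2.89 points (exact p = 0.333), or by -1.59 without control 2, and other FoxA sites by -1.39 (20.1% and 20.5% against 20.8% and 22.6%). Developmental nulls exceeded adult nulls by 3.30 points at the regions and by 5.54 at other sites, each with p = 0.333 in the exact permutation test. Of the 336 regions, 275 had a lower mean in adult nulls than in controls and 60 a higher one. By site, both adult nulls lay below both controls at 198 of 570 sites (34.7%, against 28% of all sites) and above them at 32 (5.61%, against 10.2%). The adult table had no sites on chromosomes 1 and 2, which hold 62 of the regions.

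Site by site, few of the 675 sites changed. By limma with Benjamini-Hochberg adjustment at 0.05 over all 33302 sites, 9 sites in 8 regions rose in developmental nulls and 2 sites in 2 regions fell. That is 1.33% of the sites rising, against 4.17% of all FoxA sites, and 0.296% falling, against 0.246%. Both nulls lay above both controls at 109 sites (16.1%, against 33.9% of all sites) and below them at 155 (23.0%, against 14.9%). The median difference was -0.72 points at the sites of the regions and 1.07 over all sites. A gain of over 20 points occurred at 21 sites (3.11%, against 8.12% of all sites), the same 21 that the authors' deposited list of hyper-methylated sites holds (8.12% of all sites). Leaving out any 1 of the 4 libraries left 0 of these calls, with 1 residual degree of freedom in the fit. Against adult nulls, 25 sites in 19 regions were higher in developmental nulls (4.39%, against 7.83% of 28654 sites) and 1 lower (0.175%, against 0.206%), and 2 to 14 sites were called when 1 of the 6 libraries was left out. Adult nulls against controls gave 0 calls at the 570 sites tested and 0 among all sites (limma), with 72 sites of the regions lower (12.6%, against 6.50% of all sites) and 8 higher (1.4%, against 1.53%) at an unadjusted p under 0.05.

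The steepest rise was at chromosome 1, 154826998 to 154827148. Its FoxA site stood at 0% and 6.52% in controls and 60.7% and 82.6% in developmental nulls, a difference of 68.4 points (SE 8.07, limma adjusted p = 0.0184). The HNF6 peak there had folds of 10.4, 9.12 and 6.44 in controls, was missing from both developmental nulls and adult null 1, and had a fold of 9.35 in adult null 2. At chromosome 4, 76007806 to 76008047, sites that partly overlap each other moved in opposite directions. A pair of overlapping sites with identical values rose from 19.1% and 21.2% to 65.9% and 70.4% (48.0 points, SE 4.37, limma adjusted p = 0.0141). The site starting at 76007529, which overlaps both, fell from 11.8% in both controls to 0% in both developmental nulls (limma adjusted p = 0.0306). That fall did not pass with both tables joined (limma adjusted p = 0.110), without a variance trend (0.0571) or with a replicate block (0.0609). This region kept a peak in developmental null 1, with a fold of 7.32, and in both adult nulls, whose level at the rising sites was 9.43% and 19.2%.

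The other named rises were at regions without a developmental null peak. At chromosome 19, 43868623 to 43868788, controls had 0% and 10.0% and developmental nulls 50% and 60%, and the adult nulls differed widely at 45.5% and 0%. This rise did not pass with both tables joined (limma adjusted p = 0.0704) or on a logit scale (0.0890). At chromosome 4, 85712252 to 85712416, absent from all 4 null lists, the level went from 23.3% and 33.5% to 76.2% and 64.8%, while adult nulls had 39.4% and 17.2%. At chromosome 11, 61675766 to 61675960, a change was seen from 11.3% and 24.0% to 55.4% and 60.4%, with 21.1% and 26.8% in adult nulls. The second fall was at chromosome 5, 87339852 to 87339997, from 14.3% and 16.0% to 0% in both developmental nulls, with 4.55% and 2.86% in adult nulls. It did not pass with a replicate block (limma adjusted p = 0.0581).

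The mean difference in methylation was larger at regions without a peak in developmental nulls than at those with one, although the libraries cannot bring this past a test. Without a developmental null peak (154 regions) the mean was 9.72% and 12.4% in controls and 13.6% and 13.8% in developmental nulls. With a peak in both developmental nulls (122 regions) it was 9.07% and 11.7% in controls and 9.95% and 9.53% in nulls. The null minus control difference was 3.28 points larger without a peak, with p = 0.333 in the exact permutation test of 2 against 2 libraries. By median over regions the change was small, 0.152 points without a peak and -1.11 with a peak in both. A gain over 20 points occurred at 10 of the 154 regions without a peak (6.49%). It occurred at 3 of the 122 with a peak in 1 list (2.46%) and 1 of the 122 with a peak in both (0.820%). Of all FoxA sites, counted singly, 8.12% gained as much. Regions without a developmental null peak also had weaker control peaks, with a median percentile of 70.5 against 86.5. Within classes of control strength the mean excess of 3.28 points was 5.90 among the 133 weakest regions, 0.612 in the middle class and 1.61 in the strongest. The part of peak strength in it was not tested.

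By class mean, both developmental nulls lay furthest above the controls at 22 regions that also lacked a peak in an adult null. At the 10 regions absent from all 4 null lists the mean went from 12.0% and 16.0% in controls to 32.6% and 30.4% in developmental nulls. At the 12 regions absent from both developmental nulls and 1 adult null it went from 7.01% and 9.60% to 18.8% and 20.8%. At the 132 regions absent from developmental nulls but present in both adult nulls it was 9.79% and 12.4% against 11.7% and 11.9%. By median over regions the change was 16.1 points at the 10 regions, 3.09 at the 12 and -0.499 at the 132. At the 12 regions the mean change was 11.5 points and the highest 68.4. Both nulls exceeded both controls at 13 of the 22 and fell below at 0, against 23 above and 29 below of the 132. Over all 398 regions the same held for 69 above (17.3%) and 89 below (22.4%), and over all FoxA sites for 33.9% and 14.9%. By mean, the 22 regions gained 13.6 points more than the 132 (exact permutation p = 0.333), a division made after the values were seen. The 22 regions had a median change of 6.70 points. Their median control percentile was 64.0, against 72.2 for the 132. With regions limited to those with a peak in both adult nulls, the difference between regions without and with developmental null peaks was 1.34 points in place of 3.28.

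**Figure D3:**
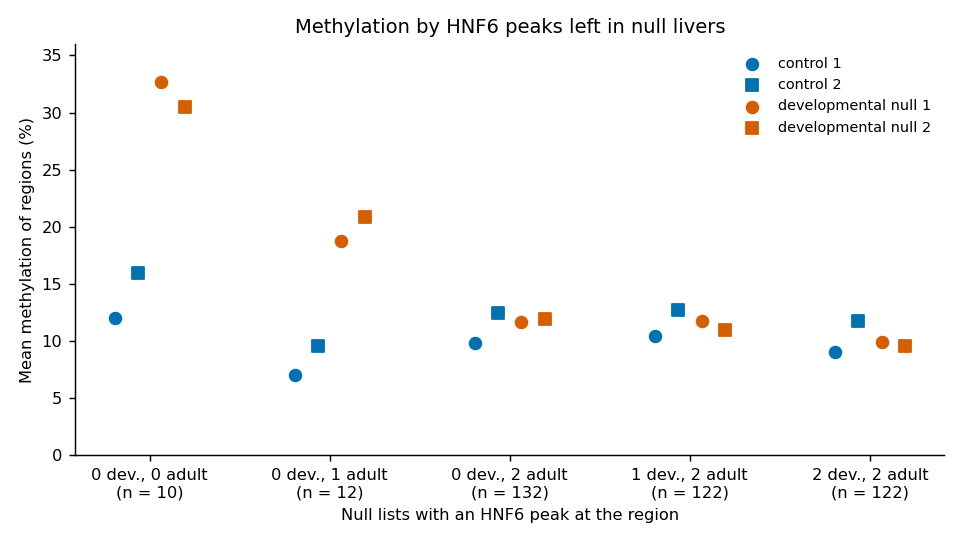
Mean methylation (%, vertical axis) of the 398 regions in each of 4 WGBS libraries, by the number of developmental null and adult null lists with an HNF6 peak (horizontal axis). Both developmental null points lie above both controls in the classes of 10 and 12 regions, and between the 2 controls in the other classes. In the class of 12 the median gain was 3.09 points.

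In adult nulls the 22 regions were not above the controls. At the 20 of them with sites in both tables the level was 9.45% and 13.0% in controls and 8.59% and 10.2% in adult nulls, a difference of -1.79 points. At the 106 comparison regions it was 9.39% and 12.0% in controls and 8.06% and 7.80% in adult nulls. Beside the regions already named, 3 of the 10 regions absent from all null lists gained over 20 points. Chromosome 19, 26494409 to 26494621, had 16.1% and 17.4% in controls, 48.6% and 54.8% in developmental nulls and 8.75% and 8.11% in adult nulls. Chromosome 4, 22135080 to 22135245, had 7.14% and 24.1%, then 40.3% and 48.5%, then 8.93% and 3.57%, in the same order. Chromosome 15, 66014661 to 66014844, was at 0% in both controls, 37.8% and 17.9% in developmental nulls and 2.22% and 0% in adult nulls. These 3 were named after their values were seen.

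**Figure D4:**
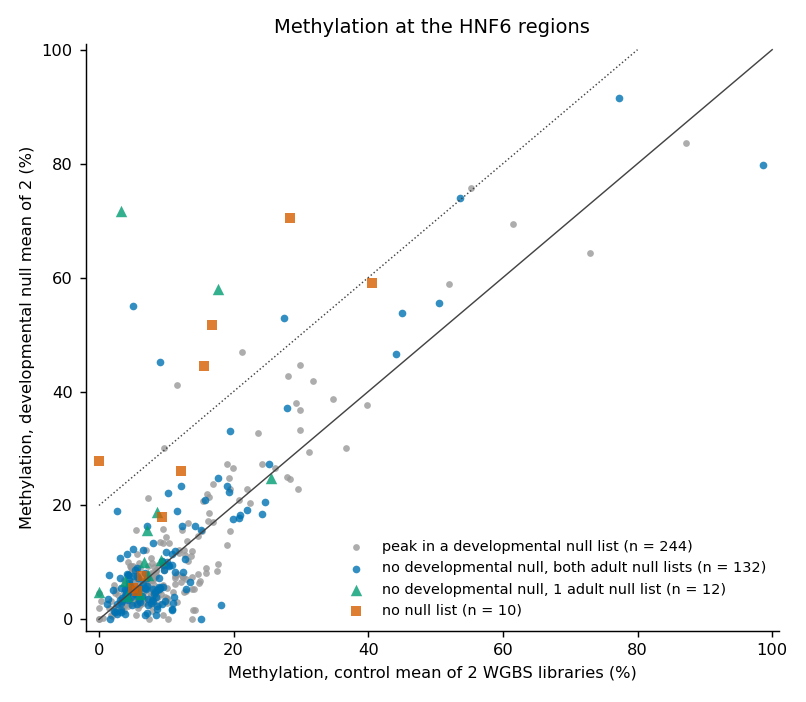
Methylation of each of the 398 regions (%), mean of 2 controls (horizontal) against mean of 2 developmental nulls (vertical), marked by the null lists with an HNF6 peak. The solid line is equality and the dotted line a gain of 20 points, above which 14 regions lie, 10 of them without a developmental null peak.

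Regions absent from developmental nulls but present in both adult nulls had gains at single places. The largest after chromosome 19, 43868623, was at chromosome 14, 36498443 to 36498852, from 5.26% and 12.8% to 30.5% and 59.7%, with 7.89% and 8.93% in adult nulls. At chromosome 15, 82596497 to 82596671, which overlaps 4 sites, the mean went from 25.0% and 29.9% to 54.8% and 51%, with 38.4% and 33.0% in adult nulls. The region at chromosome 7, 141945250 to 141945478, went from 49.5% and 57.8% to 71.9% and 76.1%, and at chromosome 1, 186429722 to 186429881, from 1.80% and 3.51% to 19.9% and 18.2%. In each of these regions both nulls lay above both controls. One of the strongest HNF6 regions, at chromosome 16, 24078236 to 24078509, also rose on average while keeping its peak in every list, but its libraries disagreed: 19.0% and 4.17% in controls, 53.8% and 28.6% in developmental nulls, while adult nulls had 0% and 20.6%.

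The regions overlapping 7, 5 and 5 sites that are named here had low levels, unlike 2 regions of 4 sites described above (chromosome 4, 76007806, and chromosome 15, 82596497), which gained over 20 points. Chromosome 2, 63699915 to 63700226, overlapped 7 sites and had 6.18% and 8.16% in controls and 4.84% and 6.15% in developmental nulls. Chromosome 19, 37517271 to 37517546, and chromosome 6, 34605854 to 34606075, overlapped 5 each, with 6.83% and 3.83% against 5.28% and 3.06% at the former and 4.80% and 4.90% against 8.82% and 4.48% at the latter. Nulls lay below both controls at the first of these and overlapped them at the others.

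RRBS measured 95 tiles of 100 bp at the FoxA sites of the regions, of which 42 had a value in all 8 libraries of the age series. That series compared control and developmental null livers at 20 days, 8 weeks, 4 months and 6 months, 1 library per age and genotype. Mean levels at these 42 tiles were 10.4%, 8.06%, 6.55% and 7.00% in controls and 10.7%, 7.34%, 7.34% and 6.48% in developmental nulls, in order of age. Livers of 20 days were highest in both genotypes. The developmental nulls averaged 7.97% ± 1.88 (SD, n = 4) and the controls 8.00% ± 1.72 (SD, n = 4), a difference of -0.0322 points (two-sided exact permutation p = 0.971). At 5762 other tiles in FoxA sites the developmental nulls were higher by 1.42 points (exact p = 0.286). By limma 0 of the 42 tiles passed, against 0.176% of 369462 tiles higher and 0.0625% lower, with 1 tile higher (2.38%, against 5.59% of all tiles) and 4 lower (9.52%, against 3.18%) at an unadjusted p under 0.05.

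The largest RRBS rise among these tiles was at chromosome 4, 62918201 to 62918300, beside the region from 62918357 to 62918560. It was higher in the developmental null at each age, with 50.0%, 35.7%, 25.0% and 27.3% in controls and 87.5%, 56.3%, 35.0% and 33.3% in nulls (18.5 points, SE 9.63, limma adjusted p = 0.623). The next rise, at chromosome 1, 130723401 to 130723500, rested on 1 library, the null of 20 days at 55.6%. The other nulls there were at 8.33% to 10.0% and the controls at 0% to 31.8%. At chromosome 7, 105496201 to 105496300, nulls had 4.76%, 20.0%, 21.9% and 7.41% and controls 5.26%, 0%, 3.70% and 10.0%, in order of age.

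Falls were of similar size, and the 3 largest are named here after their values were seen. The tile at chromosome 9, 74794801 to 74794900, had 60%, 20.0%, 6.06% and 25.0% in controls and 23.1%, 0%, 8.11% and 8.33% in nulls, in order of age (-17.9 points, SE 7.53, limma adjusted p = 0.474), with the nulls lower at each age but 4 months. The tile at chromosome 17, 13123801 to 13123900, differed by -10.6 points (limma adjusted p = 0.52), with controls from 2.33% to 37.5% and nulls from 3.70% to 9.68%. The tile at chromosome 7, 51752801 to 51752900, did not overlap between groups, at 8.33% to 16.8% in controls and 4.07% to 5.45% in nulls (-7.84 points, limma adjusted p = 0.344).

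Loss of FoxA in adult livers was also followed by RRBS in triple nulls, which lack Foxa3 as well, against controls that were FoxA3-/- with both other genes intact and received GFP. At day 7 after induction, when mice were 9 weeks old, 43 tiles averaged 8.83%, 6.48% and 7.37% in triple nulls and 9.13%, 10.9% and 12.9% in controls. The groups did not overlap, and the difference of -3.39 points had an exact permutation p of 0.1, the smallest possible for 3 against 3, or 0.4 adjusted over 4 RRBS comparisons. At other FoxA tiles the difference was -1.23 points (exact permutation p = 0.1). There too the groups did not overlap, with triple nulls at 9.37% to 10.1% and controls at 11.0% to 11.1%. After 13 days, at 12 weeks of age, 58 tiles averaged 4.90% and 6.83% in triple nulls and 9.65% and 7.10% in controls (-2.51 points, exact p = 0.333, adjusted 0.667). Without control 1 of that day the difference was -1.23 points, without control 2 -3.79 and without triple null 1 -1.57. At other FoxA tiles the day 13 difference was -1.01 points (exact permutation p = 0.333).

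After partial hepatectomy, which makes remaining hepatocytes divide, adult double nulls and GFP-injected controls did not separate. At 49 tiles the nulls had 12.6%, 13.2% and 13.8% and the controls 15.3% and 11.2%, a difference of -0.0809 points (exact p = 0.9). Across 37 tiles with a value in all 27 RRBS libraries, the lowest library means were 2.87% in a triple null of day 7 and 3.29% in one of day 13. Developmental livers that kept a Foxa2 allele (FoxA1L/L;FoxA2L/+) were at 8.01% and 6.91%, and those with 1 allele of each gene (FoxA1L/+;FoxA2L/+) at 4.17% and 6.32%, with no control of their own.

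**Figure D5:**
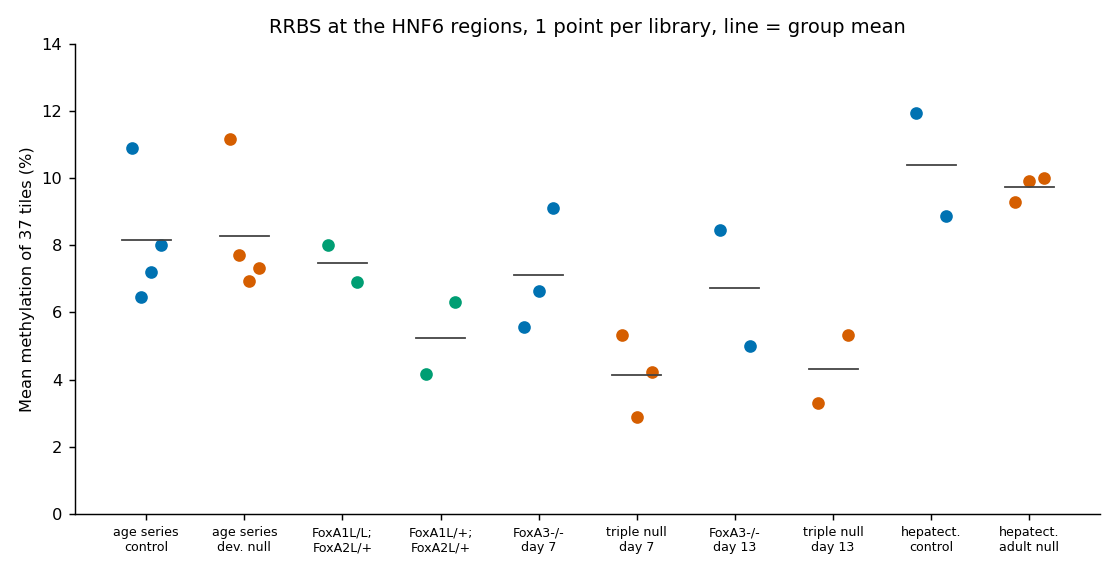
Mean methylation (%, vertical axis) of 37 tiles at the HNF6 regions in each of 27 RRBS libraries, by group. Lines are group means; the triple nulls of day 7 (2.87% to 5.33%) lie below the FoxA3-/- controls of that day (5.57% to 9.11%), and the age series groups overlap.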

How the data were processed

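The series holds 73 samples; 7 HNF6 ChIP, 6 WGBS and 27 RRBS libraries were used, and HNF4A and H3K27ac libraries were not analysed here. Groups came from sample titles. The regions, lists and tests were chosen with earlier results of these data known. Positions are mm9, and the notes name Trim Galore 0.3.3 and BSMAP 2.74, per the submitters' processing notes. Each library's HNF6 peaks were called over its input by MACS 2.1.1 (q cutoff 0.05) or, for adult nulls, MACS 1.4.3 (p cutoff 1e-05) on alignments with duplicates removed, per the file headers. The deposited lists give each peak's fold enrichment (a ratio) with −log10 of the p-value in MACS 2.1.1 lists and a score from the p-value in MACS 1.4.3 lists, as the authors deposited them. Both were used to rank peaks within a list only. Methylation was deposited by the authors as a fraction per 400 bp site (WGBS) or 100 bp tile (RRBS), with no coverage, and was multiplied by 100. The authors' deposited list of hyper-methylated sites entered a count only. In the adult table the column headed developmental null 1 held control 2's values at 100% of 28654 common sites and was used for that check alone. A region's level is the mean of its sites. Sites and tiles were tested with limma 3.58.1 in R 4.3.3 (percent scale, variance trend, Benjamini-Hochberg at 0.05) over whole tables, after checks on simulated data. Library means were compared by two-sided exact permutation in Python 3.11.15. Adult comparisons used sites in both tables. Named regions were the 5 strongest in controls, the 5 largest called rises and up to 3 falls, the 5 largest gains absent from developmental nulls but in both adult nulls, the 5 strongest in all 7 lists, the 3 with most sites, 3 on either side of the overlap threshold, and the 3 tiles with the largest RRBS rise, to which the 3 largest falls were added after their values were seen.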

Additional observations from a re-analysis of the deposited data

Results flagged for a closer look

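At 5 named sites that rose in developmental nulls, the level in developmental nulls was also above that in adult nulls. The sites were picked for high levels in the same 2 developmental null libraries, so these differences are a description and no independent support. The difference was 53.8 points at chromosome 4, 76007649 to 76008048, and 53.8 at the overlapping site starting at 76007746. It was 42.2 points at chromosome 4, 85711871 to 85712270, 34.0 at chromosome 11, 61675763 to 61676162, and 20.7 at chromosome 15, 82596234 to 82596633. At the named rise on chromosome 19, 43868506 to 43868905, the difference of 32.3 points did not pass (limma adjusted p = 0.212).

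The share of regions at FoxA sites with an HNF6 peak, minus that of the 680 reproducible regions without such a site, averaged -11.3 points over the 2 developmental null lists and 12.3 points over the 2 adult null lists. This contrast between developmental and adult nulls was not tested. Against autosomal regions alone the means were -0.818 and -0.202 points.

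In the tile at chromosome 1, 130723401 to 130723500, the developmental null of 20 days stood at 55.6%, far from the other 3 nulls. It was the only departure of this kind in 14 groups of 4 libraries examined. The libraries of a group differ in age, and most groups came from tiles named for their large differences. A chance rate can therefore not be given, and the departure is a description.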

How the results depend on the processing

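The number of regions was 395 to 1312 when 1 control list was left out, the highest without control 3, and 1324 with a peak in at least 2 lists. The mean share kept in developmental nulls, 46.0%, became 22.2% when at least 0.5 of the region had to be covered, 31.5% with lists of equal length, 25.1% with peaks above the median of each list, and 21.3% to 53.3% with 1 library left out. That in adult nulls, 96.0%, became 72.2% with lists of equal length, 89.6% with peaks above the median and 82.0% to 97.0% with 1 library left out. The share relative to regions without a FoxA site (0.502 points) turned to -0.51 against autosomal regions and to -1.38 when these were also compared with lists of equal length; both settings were chosen after seeing the data. The developmental null difference in WGBS (0.737 points) was -0.962 as a median over regions and -0.543 to 2.02 with 1 library left out. Its calls, 11 in all, became 19 with both tables joined, 33 at mean levels of 5 to 95% and 0 without any 1 library. The calls between developmental and adult nulls, 26 in all, became 2 to 14 with 1 library left out. The RRBS age series difference (-0.0322 points) was 0.0987 as a median over tiles, 0.132 at tiles with values in all libraries and -0.949 to 0.908 with 1 library left out. That after hepatectomy (-0.0809) was 0.0108 as a median and -2.10 to 1.97 with 1 library left out. The remaining summary values (adult null differences, the gap to other FoxA sites, the classes without and with developmental null peaks, and both triple null differences) kept their direction under each alternative run, and each of their permutation p-values was above 0.05. With 1 library left out, the adult null WGBS difference (-2.89) was -4.19 to -1.59, the day 13 difference (-2.51) -3.79 to -1.23 (-5.02 as a median over tiles) and the day 7 difference (-3.39) -4.82 to -2.85. Among named regions, the direction changed without 1 library at chromosome 3, 118194834, chromosome 19, 37517271, chromosome 6, 34605854, and chromosome 9, 63389548.

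Samples share replicate numbers between groups in the labels. Deviations of same-numbered WGBS libraries correlated by -0.00444 between controls and developmental nulls, 0.00818 between controls and adult nulls and 0.00651 between both nulls, across sites, so the numbers were not taken as pairs. With a replicate block 7 sites of the regions rose and 0 fell, in place of 9 and 2, and the paired mean difference was 0.737 points, as without pairing. RRBS libraries of equal age gave -0.0322 points as pairs (exact sign-flip p = 1). Planned coverage minimums were not run, since the methylation files give no coverage. Comparisons of 2 against 2 libraries cannot reach p = 0.05 by permutation.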
